A study of Homo sapiens with 12 samples.

Results

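S100 genes encode small calcium-binding proteins, and 10 of them, S100A2, S100A3, S100A4, S100A6, S100A10, S100A11, S100A13, S100A14, S100A16 and S100P, are described here in 2 cancer cell lines treated with drugs. They were chosen by name: a row of the expression table belonged to the set when its gene name was one of these, and all 10 were found among the 34687 rows. HCT116, a colon cancer line, and PANC1, a pancreatic adenocarcinoma line, received 0.05% DMSO (the drugs' solvent and the control), ICG-001 at 10 uM or C646 at 10 uM, and were harvested after 12 or 96 h. RNA was hybridised to Illumina HumanHT-12 v4 BeadChips. Each of the 12 combinations of line, treatment and time was a group with 1 column of signal intensities, the authors' mean of 2 arrays, or of 3 for PANC1 ICG-001 12 h. Both lines are established cultures without the other cells of a tumor, and no untreated or normal cells entered the comparisons. The study asked whether blocking the co-activator CBP changes other genes than blocking CBP and its relative p300 together, and for the S100 genes that question becomes a comparison of the ICG-001 and C646 columns.

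S100 proteins carry a pair of EF-hand loops that bind calcium, mostly work as dimers, and on binding calcium expose a surface that grips partner proteins such as annexins, myosin heavy chains and cytoskeletal regulators. Several are also released from cells and act through receptors such as AGER (RAGE). In epithelial cancers S100A4 is best known for promoting cell motility and metastasis and has been described as a target of β-catenin and TCF, while S100P is a well-known marker of pancreatic cancer. ICG-001 blocks the contact between CBP and β-catenin, and C646 inhibits the acetyltransferase activity of CBP and p300.

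Of the 10 genes, 9 lie on chromosome 1 and S100P lies on chromosome 4. Along chromosome 1 the family members ran in the order S100A10, S100A11, S100A9, S100A12, S100A8, S100A7A, S100A7, S100A6, S100A5, S100A4, S100A3, S100A2, S100A16, S100A14, S100A13 and S100A1 in the RefSeq gene table, so S100A4, S100A3, S100A2 and S100A16, whose values went different ways under ICG-001, are direct neighbours within the family. The 250 bases before the transcription start are shown for S100A4, which was lower under both drugs, and for S100P, higher under ICG-001 in both lines. They are also shown for S100A2 and S100A3, the members with a match to the AP-1 site given below. Both were higher in the HCT116 column with the lowest S100A4, but so were S100P, S100A16, S100A11 and S100A14. All are written 5′ to 3′ on the strand of the gene, from RefSeq on build GRCh38.p14. Capitals mark the motifs searched for: the AP-1 site TGACTCA or TGAGTCA (both strands) and the TATA box TATAAA (strand of the gene).
S100A4 promoter, chr1:153545807-153546056, minus strand: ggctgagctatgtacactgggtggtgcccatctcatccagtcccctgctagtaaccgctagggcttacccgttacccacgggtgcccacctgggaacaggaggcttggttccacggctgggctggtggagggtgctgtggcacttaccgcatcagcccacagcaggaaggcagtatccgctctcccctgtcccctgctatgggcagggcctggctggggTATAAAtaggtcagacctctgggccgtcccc
S100A3 promoter, chr1:153549259-153549508, minus strand: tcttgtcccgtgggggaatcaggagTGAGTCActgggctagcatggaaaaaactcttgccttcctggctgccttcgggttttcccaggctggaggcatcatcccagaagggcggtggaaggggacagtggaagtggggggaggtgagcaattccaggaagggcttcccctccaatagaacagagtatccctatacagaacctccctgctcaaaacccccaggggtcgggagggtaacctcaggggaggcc
S100A2 promoter, chr1:153565845-153566094, minus strand: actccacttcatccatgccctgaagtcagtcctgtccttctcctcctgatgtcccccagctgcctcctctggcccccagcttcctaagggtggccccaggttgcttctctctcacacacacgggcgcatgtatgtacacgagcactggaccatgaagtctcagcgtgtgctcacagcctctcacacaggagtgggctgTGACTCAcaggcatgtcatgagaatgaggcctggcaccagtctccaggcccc
S100P promoter, chr4:6693628-6693877, plus strand: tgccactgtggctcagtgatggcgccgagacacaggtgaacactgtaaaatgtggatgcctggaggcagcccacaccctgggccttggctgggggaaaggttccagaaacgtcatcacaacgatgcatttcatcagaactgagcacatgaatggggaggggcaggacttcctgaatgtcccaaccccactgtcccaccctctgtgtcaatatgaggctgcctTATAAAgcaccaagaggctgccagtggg

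RefSeq gave 14 promoters for the 10 genes, each 250 bases before to 50 after a start. The TCF/LEF core, CTTTGAT or CTTTGAA on either strand, was in 0 of the 14, against 6.86% of all 35097 promoters of the same length. The AP-1 site was in 2 of the 14, that of S100A3 and 1 of the promoters of S100A2, against 4.95% of all promoters. In S100A2 its first base lay at -52 from the start and in S100A3 at -225. No AP-1 site was found for S100P, S100A16, S100A11 or S100A14, which were also at least 1.5-fold higher in HCT116 with ICG-001 at 12 h. TATAAA, looked for only after these sequences had been seen, was in promoters of S100A4 (at -31), S100P (at -28) and S100A13 (at -29), against 7.33% of all. These are matches of letters in short windows and describe the sequence only.

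The detection limit used here is the peak of a column's log2 signal distribution, where most values are background, raised to the point under which 99.0% of a normal background with the spread of the values below that peak would fall. In HCT116 this limit was 143.4 to 144.1 and in PANC1 134.8 to 138.1, and 15417 to 16572 genes per column were above it. Of the members, 8 exceeded it in all 12 columns, the exceptions being S100A2 and S100P, of which S100A2 did so in 4 HCT116 and 2 PANC1 columns and S100P in 2 HCT116 and 4 PANC1 columns. A ratio was used where 1 or both of its columns exceeded the limit, and a gene whose ratio reached 1.5-fold, up or down, is said to be called. There was 1 column per group, so no difference below has a replicate check, an error or a p-value. As a check of the labels, 7 of 9 colon epithelium markers were above the limit in some HCT116 column (CDX1 and VIL1 were not) with a summed signal of 13699 to 16525, but so were 6 of 9 in some PANC1 column (CDX1, VIL1 and KRT20 were not), at 4600.4 to 9706, so the presence of this list does not tell the lines apart. Of 4 pancreatic acinar markers, 3 were above the limit in some HCT116 column (CPA1 was not) and only CTRC in 1 PANC1 column, with summed signals of 522.6 to 588.7 and 481.5 to 500.1. Of the 4 leukocyte markers, PTPRC and CD3E were under the limit in all 12 columns, CD68 was above it in all 12 (at 290.5 to 674.8 for HCT116 and 2042 to 3415 for PANC1) and CD14 in all 6 of PANC1 (142.1 to 172.6). Of the 5 fibroblast markers only COL1A1 was above the limit in any column, in both lines.

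S100A4 binds non-muscle myosin heavy chains and is linked to motility and invasion. In HCT116 its signal was 10780.3 and 9801 with DMSO at 12 and 96 h, 5455 and 7824 under ICG-001, and 6922 and 8887 under C646. All 4 drug columns were below both DMSO columns, and with each drug the signal was lower at 12 than at 96 h. In a culture measured in bulk, fewer cells with the transcript and less of it per cell cannot be told apart. The log2 ratio of drug over DMSO was -0.98 for ICG-001 and -0.64 for C646 at 12 h, folds of 1.98 and 1.56, and -0.33 and -0.14 at 96 h. At 12 h a ratio as low as that of S100A4 was found for 0.547% of the genes compared for ICG-001 and 1.1% of those for C646. Earlier results of these data had named S100A4, so these shares are descriptions only. The C646 value is near the threshold: with quantile normalization over all 12 columns it was -0.55 and no longer a 1.5-fold change. In PANC1 the signal was 12982 and 12141 with DMSO, 11814 and 10906 under ICG-001 and 11464 and 11126 under C646, so all 4 drug columns were again below both DMSO columns, over a narrow range. The 4 PANC1 ratios lay between -0.18 and -0.13, close in size to the -0.10 between the DMSO columns at 96 and 12 h. S100A4 was thus below DMSO in 8 of 8 comparisons, as were 9.68% of the 17136 genes above the limit in both lines, and the ICG-001 and C646 values at each time share a DMSO column.

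S100P, a secreted and intracellular S100 protein that binds ezrin and AGER, was near background without drug. In HCT116 its signal was 129.1 and 133.4 with DMSO at 12 and 96 h, both under the limit, 236.3 and 223.5 under ICG-001, and 129.3 and 131.1 under C646. In PANC1 it was 133.7 and 162.7 with DMSO, 265.5 and 411.5 under ICG-001, and 130.2 and 151.5 under C646. In each line both ICG-001 columns were above all 4 other columns. For C646 over DMSO only PANC1 at 96 h had signals above the limit, with a log2 ratio of -0.10. In the other comparisons of C646 with DMSO both signals were under the limit, so no ratio was used. Against DMSO, S100P was at least 1.65-fold higher with ICG-001 at 12 h and at least 1.56-fold at 96 h in HCT116, at least 1.93-fold higher at 12 h in PANC1, and 2.53-fold higher at 96 h in PANC1 (log2 ratio 1.34), where both signals were above the limit. In that PANC1 comparison 0.276% of genes had a ratio as high. The DMSO signal itself was 0.28 higher at 96 than at 12 h in PANC1, a smaller difference in the same direction. Background was left in the signal, which compresses the ratios of a gene this dim.

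**Figure D1:**
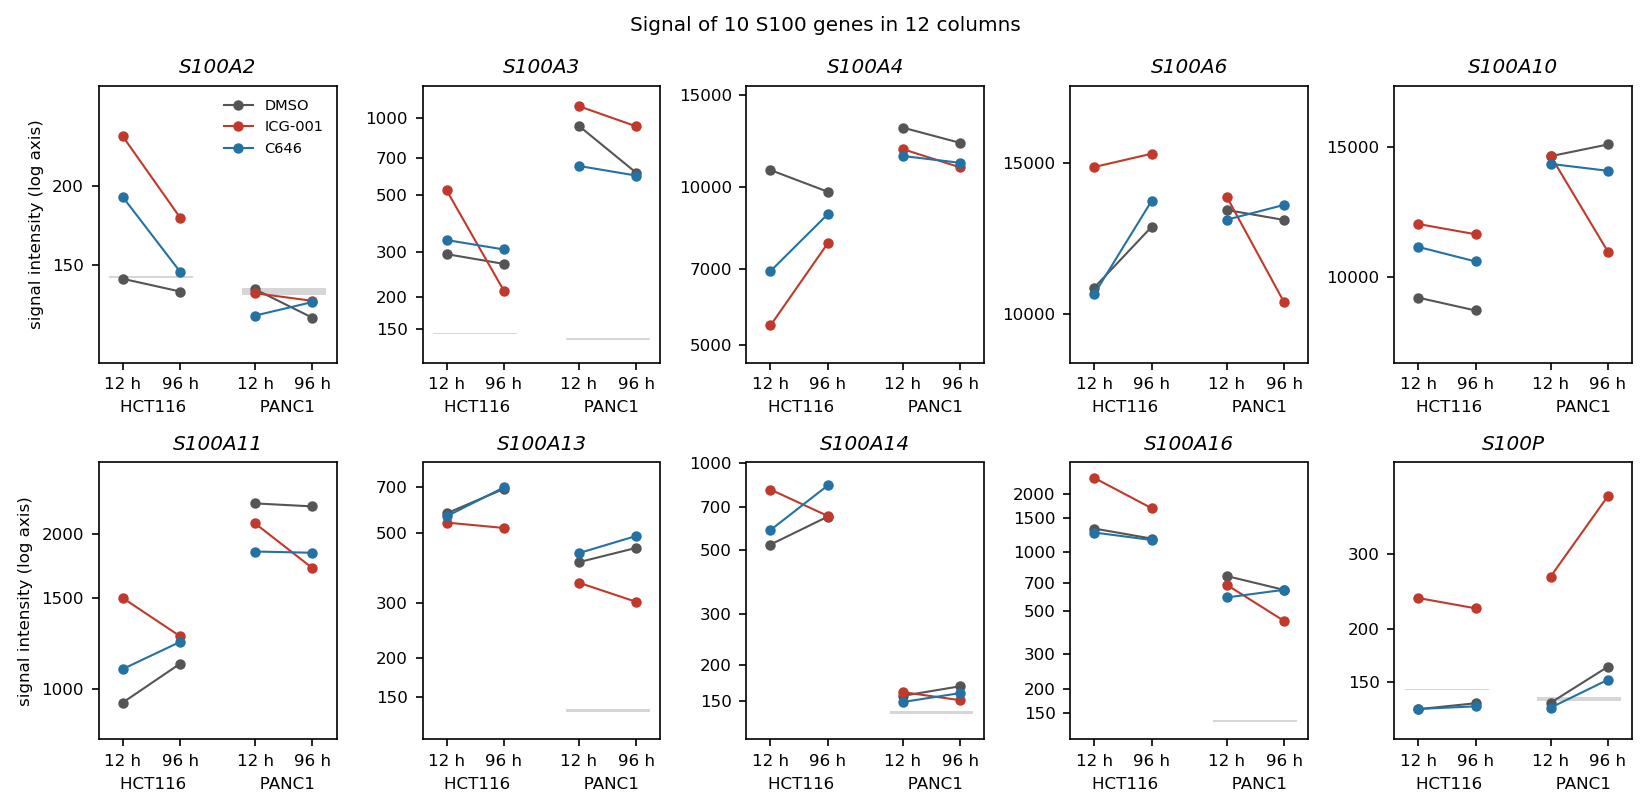
Signal intensity (log axis) of each S100 gene at 12 and 96 h in HCT116 and PANC1, with DMSO in grey, ICG-001 in red and C646 in blue. Each point is 1 averaged column, lines join the times of a treatment, and the grey band is the range of detection limits. S100A4 is lowest in HCT116 ICG-001 12 h (5455), and S100P stands above the other treatments with ICG-001 in both lines (HCT116 at 236.3 and 223.5, PANC1 at 265.5 and 411.5).

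In the HCT116 column of 12 h of ICG-001, 7 of the 10 genes differed from DMSO by at least 1.5-fold, 6 higher and S100A4 lower, where 8.99% of all genes above the limit were called (4.83% higher and 4.16% lower). The median log2 ratio of the 10 was 0.65, against 0.00 over all genes compared. S100A2 and S100P were under the limit with DMSO and entered through the ICG-001 column alone, so their ratios are bounds, and of the 8 members above the limit in both columns 4 were called higher and 1 lower, with a median of 0.55. The 6 higher genes were S100P, S100A16, S100A3, S100A2, S100A11 and S100A14, of which S100A3, S100A2 and S100A16 follow S100A4 directly in the family order.

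S100A16 is a widely expressed member with a role in fat cell differentiation. Its HCT116 signal was 1324 and 1176 with DMSO at 12 and 96 h, 2405 and 1683 under ICG-001, and 1264 and 1157 under C646. Both ICG-001 columns were above the other 4, at 1.82-fold over DMSO at 12 h and 1.43-fold at 96 h, and the C646 log2 ratios were -0.07 and -0.02. In PANC1 the order was different, with 756.4 and 642.1 for DMSO, 682.0 and 445.2 for ICG-001 and 587.4 and 643.2 for C646, and the 96 h ICG-001 column was the lowest, at a log2 ratio of -0.53.

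S100A3 is best known from the cuticle of hair. Its signal in HCT116 was 293.7 and 268.9 with DMSO, 521.9 and 210.9 under ICG-001, and 333.5 and 306.2 under C646. With ICG-001 it was the highest of the 6 HCT116 columns at 12 h and the lowest at 96 h, with log2 ratios to DMSO of 0.83 and -0.35. The PANC1 signals were 932.3 and 611.0 with DMSO, 1114 and 928.9 under ICG-001, and 650.2 and 596.0 under C646. The PANC1 DMSO columns themselves were 1.53-fold apart, lower at 96 h, a difference as low as which only 0.242% of genes showed, and it enters the ratios: S100A3 with ICG-001 was 0.26 above DMSO at 12 h and 0.60 above it at 96 h, and with C646 -0.52 at 12 h and -0.04 at 96 h. Set against C646 in place of DMSO, ICG-001 was 1.71-fold higher at 12 h and 1.56-fold higher at 96 h in PANC1.

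S100A2, an epithelial member that binds p53, had HCT116 signals of 142.9 and 136.4 with DMSO, both under the limit, 239.6 and 178.4 under ICG-001 and 192.2 and 146.6 under C646. All 4 drug columns were above both DMSO columns, and at 12 h the value with ICG-001 was at least 1.67-fold and with C646 at least 1.34-fold over DMSO. In PANC1 it was 124.0 to 137.5, at or under the limit or just above it, and no order can be read there.

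S100A11 binds annexin A1 and takes part in membrane repair and keratinocyte growth control. Its HCT116 signal was 942.3 and 1121 with DMSO, 1502 and 1267 under ICG-001, and 1094 and 1235 under C646, and its PANC1 signal 2290.3 and 2259.7 with DMSO, 2095 and 1716 under ICG-001, and 1848 and 1838 under C646. All 4 drug ratios were above 0 in HCT116, the highest 0.67 for ICG-001 at 12 h, and all 4 were below 0 in PANC1, from -0.40 to -0.13. Only the HCT116 value at 12 h with ICG-001 reached 1.5-fold. The HCT116 DMSO signal itself was 0.25 higher at 96 than at 12 h, more than the other HCT116 ratios.

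S100A14, an epithelial member, had HCT116 signals of 520.3 and 650.3 with DMSO, 806.6 and 653.4 under ICG-001, and 584.0 and 833.8 under C646. The drugs differed in time there: ICG-001 was 1.55-fold over DMSO at 12 h and close to it at 96 h (log2 ratio 0.01), while C646 was 0.17 above DMSO at 12 h and 0.36 at 96 h. In PANC1 all 6 columns lay between 148.5 and 168.3, not far above the limit.

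S100A6 (calcyclin), which binds CACYBP, and S100A10, the partner of annexin A2, were bright in every column. S100A6 had HCT116 signals of 10727 and 12637 with DMSO, 14842 and 15383 under ICG-001, and 10543 and 13552 under C646. S100A10 had 9362 and 8994 with DMSO, 11780.1 and 11409 under ICG-001, and 10969 and 10480.1 under C646. For both genes the ICG-001 columns were the highest of the HCT116 columns, by 0.28 to 0.47 log2 units over DMSO, under the 1.5-fold threshold. In PANC1 the ICG-001 96 h column was the lowest for both, at 10311 for S100A6, where the other 5 columns lay between 12868.5 and 13699.7, and at 10803 for S100A10, where the others lay between 13906.5 and 15099.5. The PANC1 log2 ratios for that column were -0.32 and -0.48, and at 12 h they were 0.05 and 0.00.

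S100A13, which takes part in the release of FGF1 and IL1A, was the member whose ICG-001 columns were the lowest of their line in both lines. Its signal was 577.3 and 691.0 with DMSO, 539.7 and 518.8 under ICG-001, and 565.1 and 698.4 under C646 in HCT116. In PANC1 it was 403.9 and 448.5 with DMSO, 347.4 and 301.9 under ICG-001, and 431.5 and 489.4 under C646. At 12 h the ICG-001 ratios were small, -0.10 and -0.22, and at 96 h they were -0.41 in HCT116 and -0.57 in PANC1, the latter just inside the threshold, with -0.74 after normexp followed by quantile normalization within the line, which are 2 changes at once. In both lines the DMSO and C646 signals were higher at 96 than at 12 h and the ICG-001 signals lower.

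**Figure D2:**
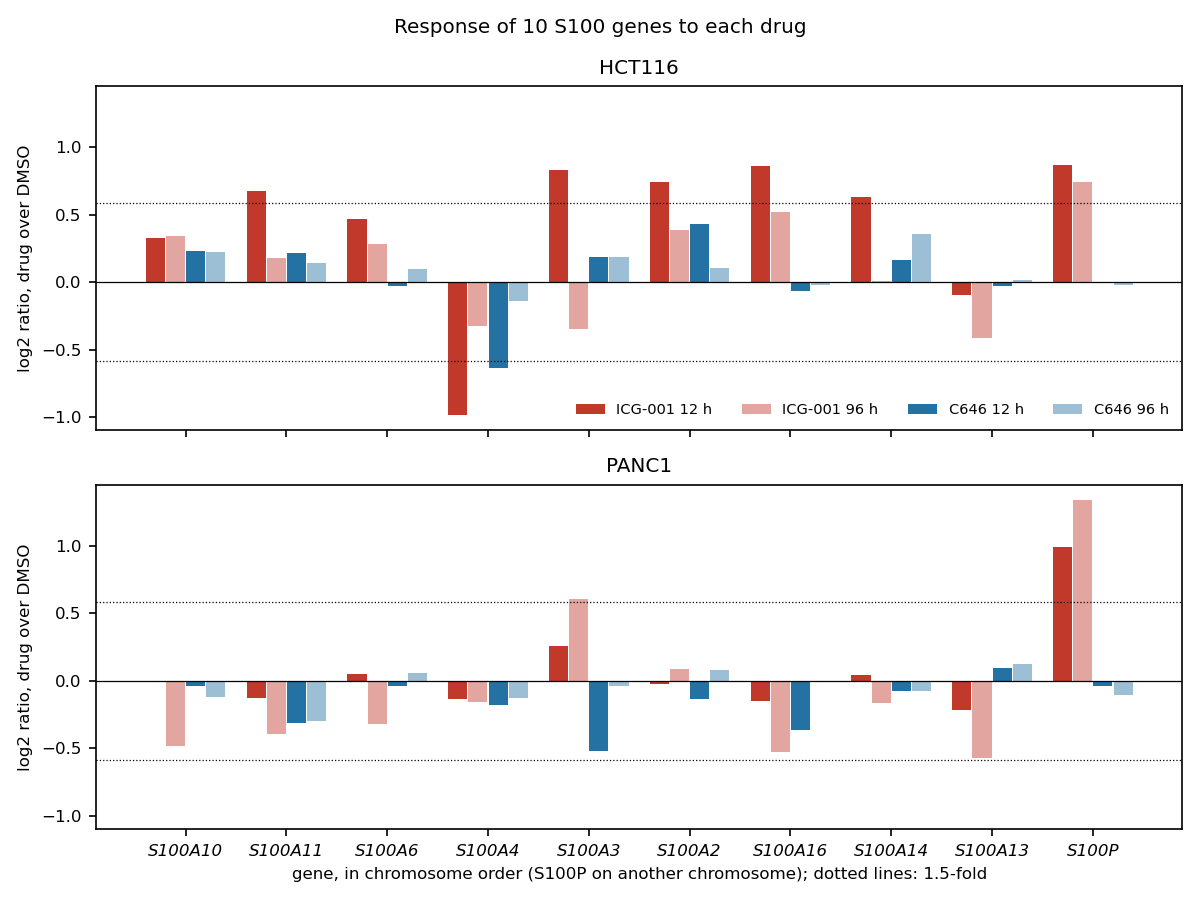
Log2 ratio of drug over DMSO for the S100 genes in HCT116 (top) and PANC1 (bottom), with ICG-001 in red and C646 in blue, dark bars for 12 h and pale bars for 96 h, and dotted lines at 1.5-fold. Each bar is 1 column over 1 column, without error. In HCT116 most dark red bars point up and that of S100A4 down (-0.98), and in PANC1 most pale red bars point down except those of S100A3 (0.60) and S100P (1.34), with S100A2 near the detection limit.

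Calls in the other comparisons with DMSO were few. In HCT116, 1 gene was called with ICG-001 at 96 h (S100P, background 10.3%), 1 with C646 at 12 h (S100A4, background 4.13%) and 0 with C646 at 96 h (background 3.14%). In PANC1, 1 gene was called with ICG-001 at 12 h (S100P, background 2.51%), 2 with ICG-001 at 96 h (S100P and S100A3, background 7.39%), and 0 with C646 at 12 h (background 6.7%) or 96 h (background 4.01%). With 10 genes, counts of 1 or 2 at these backgrounds are not read as a property of the family. After 96 h of ICG-001, 7 of 10 members were above 0 in HCT116 with a median of 0.23. S100A2 and S100P entered there through the ICG-001 column alone. The 8 members above the limit in both columns had a median of 0.09. In PANC1, 7 of the 9 above the limit were below 0 with a median of -0.32. In that PANC1 comparison 5 of the 6 colon epithelium markers above the limit were also below 0, with a median of -0.51 and 2 called lower. The 2 were KRT8 (-1.06) and EPCAM (-0.78). KRT18 was at -0.53 and CDH1 at -0.49, while GPA33 (-0.07) and CDX2 (0.04) stayed near 0. The summed signal of the list was 4600.4 with ICG-001 and 8285 with DMSO, of which KRT8 made up 2892 and 6010. The part of this shift in the S100 values was not tested. For C646 the HCT116 medians were 0.17 and 0.10 and the PANC1 medians -0.14 and -0.08, over the 9 members above the limit in each, and those over all genes lay between -0.02 and 0.01 in the 8 comparisons. In PANC1 with C646 at 12 h the median was the ratio of S100A2, whose C646 signal was under the limit. With the limit in place of that signal the median was -0.07. S100A2 was near the limit in PANC1, and S100A3 with ICG-001 at 96 h in PANC1 fell just inside the threshold, at 0.58, under quantile normalization over all 12 columns.

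**Figure D3:**
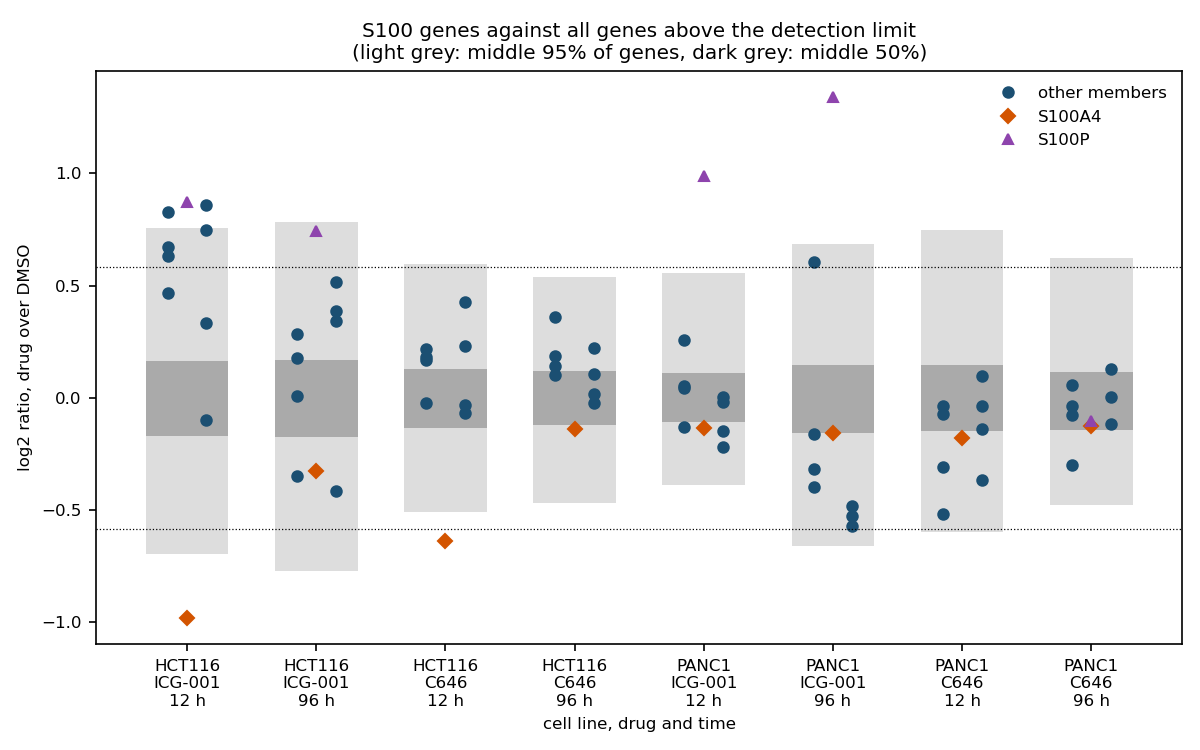
Log2 ratio of drug over DMSO of the S100 genes above the detection limit in each of the 8 comparisons, with S100A4 as diamonds, S100P as triangles and the others as circles, over the middle 95% (light grey) and 50% (dark grey) of all genes above the limit. S100A4 lies below the light band at 12 h in HCT116 (-0.98 and -0.64), and S100P lies above it with ICG-001 in 3 of the 4 comparisons, at 0.87, 0.99 and 1.34. The first 2 of these are over DMSO signals under the limit, for which only the bounds of 1.65-fold (HCT116) and 1.93-fold (PANC1) hold.

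The drugs were then compared with each other at the same dose and time, without the DMSO columns. In HCT116 at 12 h, 3 members were called, all higher with ICG-001: S100A16 (1.90-fold), S100P (at least 1.65-fold) and S100A3 (1.56-fold), against a background of 6.28%. In HCT116 at 96 h only S100P was called, at least 1.56-fold higher (background 6.54%). In PANC1, S100P was at least 1.95-fold higher with ICG-001 at 12 h and 2.72-fold higher at 96 h, and S100A3 was 1.71-fold and 1.56-fold higher, against backgrounds of 2.5% and 6.77%. S100A13 was 1.62-fold lower with ICG-001 in PANC1 at 96 h. In all but the PANC1 comparison at 96 h the C646 signal of S100P was under the limit, and the gene entered through the ICG-001 column alone. S100A4 was not called in any of them: it was 0.34 lower with ICG-001 than with C646 in HCT116 at 12 h, 0.18 lower at 96 h, and 0.04 higher and 0.03 lower in PANC1, although its ratio to DMSO at 12 h in HCT116 was past the threshold with each drug.

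Between 12 and 96 h without drug, no member was called in HCT116 (background 3.12%) and 1 in PANC1, S100A3 (background 1.31%). By the methods of the study, cells for 96 h were treated at a lower density than those for 12 h and were passaged. Time, density and handling cannot be told apart in the ratios of 96 h over 12 h. With ICG-001, S100A3 was 2.47-fold lower at 96 than at 12 h in HCT116 (log2 ratio -1.31, background 6.87%), and only 0.153% of genes had a ratio as low. In PANC1 with ICG-001, S100P was 1.55-fold higher and S100A16 1.53-fold lower at 96 h (background 3.94%). With C646 no member was called over time in HCT116 (background 7.1%) or PANC1 (background 0.481%). S100A4 in HCT116 was 0.52 higher at 96 than at 12 h under ICG-001 and 0.36 higher with C646, while the DMSO signal was 0.14 lower.

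The lines were set side by side with DMSO. They appear to have been normalized apart, so these ratios also hold any offset between the tables. S100A14 was 3.34-fold lower in PANC1 than in HCT116 at 12 h and 3.86-fold lower at 96 h, S100A16 was 1.75-fold and 1.83-fold lower, and S100A13 was 1.43-fold and 1.54-fold lower. S100A3 was 3.17-fold and 2.27-fold higher in PANC1, S100A11 2.43-fold and 2.02-fold higher, and S100A10 1.55-fold and 1.68-fold higher. S100A4 and S100A6 differed by 1.24-fold or less. With all 12 columns put on 1 distribution the S100A14 folds were 3.35 and 3.91 and those of S100A10 1.84 and 1.95, and S100A4 was 1.42-fold and 1.46-fold higher in PANC1. The counts called were 5 and 6 of the 9 members above the limit at 12 and 96 h, against 23.5% and 25.7% of all genes above it. S100P at 12 h and S100A2 at 96 h were under the limit in both lines.

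The members were also compared over the 12 columns after the mean of each line had been taken off the log2 signal. The points share arrays, time points and DMSO columns and are not independent, and the correlations are descriptions without a test. Of the 45 pairs of members, 12 had an r of at least 0.5 and 3 an r of at most -0.5. S100A6, S100A10, S100A11 and S100A16 went together, with r between 0.67 and 0.76 for every pair of the 4. The lowest values were -0.91 for S100A2 with S100A4 and -0.82 for S100A13 with S100P. S100A2 was near the limit in PANC1, so the first of these rests on HCT116, where S100A2 was above the limit in 4 columns and under it in both DMSO columns. S100P was above the limit in 2 HCT116 and 4 PANC1 columns, so the second also rests partly on background values.

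Among the 17136 genes above the limit in at least 1 column of each line, the profile most like that of S100A4 was that of NDUFA2, a subunit of respiratory complex I (r = 0.97 over 12 columns), followed by PTOV1 (0.93), ZNF395 (0.93), SAP130 (0.92) and a row that carries only a cluster number in place of a gene name (0.92). The NDUFA2 log2 ratios were -0.93 and -0.45 under ICG-001 and -0.54 and -0.21 for the C646 columns of HCT116, beside -0.98, -0.33, -0.64 and -0.14 for S100A4. Without the HCT116 ICG-001 12 h column, the lowest point of S100A4, the r values were 0.94 for NDUFA2 and 0.83 to 0.89 for the others. For S100P the most alike were CHMP4C, an ESCRT-III subunit (0.98), BEX2 (0.97), MTHFD1L, a mitochondrial folate enzyme (0.97), INHBE, an inhibin subunit (0.97), and HDDC3 (0.96). BEX2 was 1.35 and 1.48 above DMSO with ICG-001 in HCT116 and 1.88 and 1.85 above it in PANC1. Ranked by Spearman's rho, 1 of the 5 genes was shared with each of these lists.

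**Figure D4:**
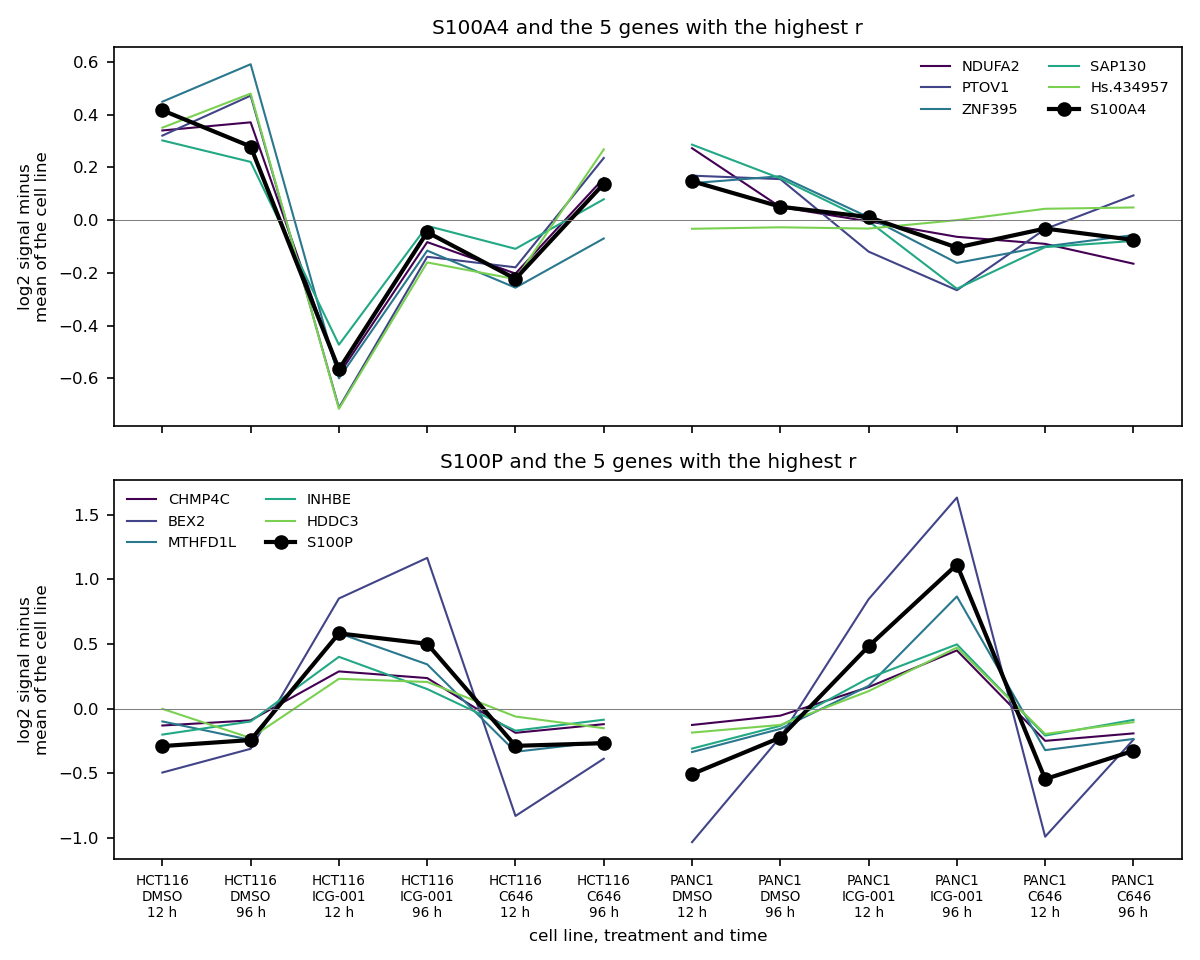
Log2 signal minus the mean of the cell line over the 12 columns for S100A4 (top, black) and S100P (bottom, black), each with the 5 genes of highest Pearson r in color. Points are single averaged columns, and a gap parts the lines. S100A4 and its 5 genes share a low at HCT116 ICG-001 12 h, and S100P and its 5 genes are high in the ICG-001 columns of both lines.

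The table held 10 further S100 genes. Only S100A1 and S100A5 were above the limit in any column, with signals of 129.8 to 182.8, and neither was called in the 8 comparisons with DMSO. S100A7, S100A7A, S100A8, S100A9, S100A12, S100B, S100G and S100Z were under the limit in all 12 columns.

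Known partners of S100 proteins formed a list of 26 genes. Of these, 18 to 21 were above the limit in a comparison, and 3, 2, 1 and 1 were called in HCT116 (ICG-001 at 12 and 96 h, C646 at 12 and 96 h) and 0, 5, 3 and 2 in PANC1, all but 1 of them lower. For HCT116 the backgrounds in that order were 8.99%, 10.3%, 4.13% and 3.14%, and for PANC1 they were 2.51%, 7.39%, 6.7% and 4.01%. ANXA2, the partner of S100A10, lay between -0.17 and 0.19 in the 8 comparisons. ANXA1, a partner of S100A11, was -1.43 with ICG-001 at 96 h in PANC1 and between -0.46 and 0.06 in the other 7. CACYBP, the S100A6 binding protein, was -0.88 with ICG-001 at 12 h in HCT116 and between -0.30 and 0.51 elsewhere. Of the myosin heavy chains, MYH9, the main S100A4 partner, lay between -0.40 and 0.06, and MYH10 was -0.90 and -0.65 with ICG-001 in HCT116 and -0.73 with ICG-001 at 96 h in PANC1. EZR, which S100P binds, was at most 0.48, S100PBP between -0.10 and 0.20, and AHNAK between -0.23 and 0.42. The receptor AGER was above the limit in 1 column, and TLR4 in 0.

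A second list held 21 other genes with EF-hand calcium-binding loops, such as calmodulins and calpains. Of the 19 or 20 above the limit, 2, 4, 0 and 1 were called in HCT116 and 0, 2, 3 and 0 in PANC1, in the same order of comparisons and against the same backgrounds, with medians between -0.19 and 0.18. RCN1, a reticulocalbin of the endoplasmic reticulum, was 0.63 and 0.70 under ICG-001 in HCT116 and 0.51 and 0.67 in PANC1, and between -0.11 and 0.08 with C646. In HCT116 with ICG-001 at 12 h the median of these genes was -0.04. The S100 median there was 0.65, or 0.55 over the members above the limit in both columns.

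Of 18 protein-coding genes that flank the members in the genome, 17 were in the table and 10 to 13 above the limit. Called were 1 with ICG-001 at 96 h in HCT116 (background 10.3%) and 1 in PANC1 (background 7.39%). Both times the gene was MAN2B2, a lysosomal mannosidase, at 0.86 and 1.01. It lies near S100P, and another gene of the list, not called, lies between MAN2B2 and S100P. In the other 6 comparisons with DMSO 0 were called (backgrounds 2.51% to 8.99%). In HCT116 with ICG-001 at 12 h, where 7 of the S100 genes were called, none of the 12 neighbours above the limit was. The background there was 8.99%, and 0 of 12 is near that share and is not read as a result.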

How the data were processed

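The deposited values are signal intensities on a linear scale. By the methods of the study, the authors quantile-normalized the arrays in GenomeStudio, subtracted no background and averaged replicate arrays, which leaves no spread between replicates here and shrinks ratios of dim genes. The annotation build of the arrays was not given in the sources used here. From these values, log2 ratios were taken between 2 columns of a cell line (8 of drug over DMSO, 4 of ICG-001 over C646 and 6 of 96 h over 12 h) and, with DMSO, between lines. The detection limit used a Gaussian kernel density with a bandwidth factor of 0.05 on log2 signals below 9. Where 1 of the columns was at or under the limit, the fold is the brighter signal over the limit. The number of arrays limits the precision, and no test was run.

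The members, lists, thresholds and alternatives were chosen with earlier results of these data known, and S100A4 was among the genes those results had named. The text names all members, preset partners, and the 5 genes with the highest Pearson r to S100A4 and to S100P. MYH10, RCN1 and MAN2B2 were named after their values were seen. A pancreatic duct marker list was also examined and is not reported here. Gene lists were written by hand, except the flanking genes, which were the 3 nearest protein-coding genes on each side in the RefSeq gene table (GRCh38.p14). Alternatives were thresholds of 1.2 and 2, a comparison of all genes whether dim or not, a detection limit of 5 SD, normexp correction with an offset of 16 and quantile normalization within a line, centring on the median, and quantile normalization over all 12 columns. Normexp was run with limma 3.58.1 (R 4.3.3), and all else in Python 3.11.15 with scipy 1.17.1, pandas 2.3.3, matplotlib 3.10.9 and numpy 2.4.6.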

Additional observations from a re-analysis of the deposited data

Results flagged for a closer look

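S100A11 was on opposite sides of 0 in the lines. Its 4 log2 ratios of drug over DMSO were 0.14 to 0.67 in HCT116 and -0.40 to -0.13 in PANC1, and the means over the 4 comparisons were 0.30 and -0.28, a difference of 0.58. The HCT116 DMSO signal itself was 0.25 higher at 96 than at 12 h. That is more than every HCT116 ratio except 0.67, the only ratio to reach 1.5-fold. The difference between the lines was not tested, since each group had 1 column, and the 4 ratios of a line share 2 DMSO columns. Among 17136 genes above the detection limit somewhere in each line, 333 (1.94%) had all 4 ratios of a line on one side of 0 and all 4 of the other line on the opposite side. The difference was 0.62 after normexp followed by quantile normalization within a line, and 0.58 with quantile normalization over all 12 columns or with centring, alternatives chosen after seeing the data.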

How the results depend on the processing

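No paired analysis was possible because each group had 1 averaged column, and taking lines or times as replicates was not done. Comparing dim genes too, a 5 SD limit and centring left each of the 18 counts of called members within 1.5 times its value, and no member's log2 ratio that was called turned its sign under any alternative. At a threshold of 1.2, calls against DMSO became 8 in HCT116 under ICG-001 at 96 h, 2 and 1 under C646 at 12 and 96 h, and 7, 3 and 1 in PANC1, where 34.1%, 21.8%, 19.8%, 29.2%, 26.7% and 21.4% of all genes were called. Calls of ICG-001 over C646 became 8 and 6 in HCT116 and 6 in PANC1 at 96 h, and calls over time 1, 5 and 5 in HCT116 (DMSO, ICG-001, C646) and 2 and 5 in PANC1 (DMSO, ICG-001), beside 15.3% to 29.5% of all genes. At a threshold of 2, no member was called in HCT116 (0 against DMSO and 0 between drugs), where 0.304% to 2.16% of all genes were. In PANC1, ICG-001 over DMSO gave 0 and 1 at 12 and 96 h (0.352% and 1.34% of all genes). Between drugs PANC1 gave 1 and 1 (0.226% and 1.39%), and over time 0 (0.0458% to 0.516%). S100A3 over time with ICG-001 in HCT116 stayed called, where 1.15% of all genes were. With normexp followed by quantile normalization within a line, 2 steps changed together, calls became 2 under ICG-001 at 96 h and 2 under C646 at 12 h in HCT116, adding S100A2, and in PANC1 4 under ICG-001 at 96 h, adding S100A13 and S100A16 as lower, and 1 under C646 at 12 h, S100A3, also lower. Calls of ICG-001 over C646 at 96 h in HCT116 became 4, and calls over time 2 (ICG-001) and 1 (C646) in HCT116 and 2 (DMSO) and 1 (C646) in PANC1. Over all genes this setting called 3.26% to 22.2% in these comparisons. It moved 66 of 180 member ratios by more than the spread of dim genes, and the cause was not tested. With quantile normalization over all 12 columns, C646 at 12 h in HCT116 gave 0 (S100A4 at -0.55), where 4.21% of all genes were called. ICG-001 at 96 h in PANC1 then gave 1 (S100A3 at 0.58), where 7.3% were.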
